A study of Brachypodium distachyon with 20 samples.

Results

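Early endosperm (EEN) was compared with transition stage embryos (TRA), the embryo stage sampled at the same time, in grains of Brachypodium distachyon, a small wild grass related to wheat. The comparison used the EEN and TRA libraries, 4 of the 20 libraries of the series, with 2 libraries in each group. It covered every gene above 0 log2 CPM (reads of a gene relative to library size, log2 scale, with 0 log2 CPM equal to 1 CPM) in at least 2 of the 20 libraries, 22902 of the 23749 genes with a value. EEN and TRA both came from the reference line Bd21, grown under long days, with spikelets emasculated and pollinated by hand and with no other treatment. An EEN library was made from the tissue left in pooled grains after the seed coat and the embryo had been taken away. A TRA library was made from pooled embryos freed through a hole punched in the grain and washed repeatedly. For both groups the mRNA was amplified to antisense RNA before the libraries were made. The other libraries came from embryos before TRA (TCQ, the youngest, and PEM) and after it (LEE, LEM and LEL, the early, middle and late leaf stages, and MAT, mature), from late endosperm (LEN) and from seed coat (SEC), with 2 libraries each. The study places SEC, like LEN, at the LEL stage, so SEC is older than EEN and TRA. In bulk tissue, fewer cells of a type and less RNA per cell cannot be told apart.

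The endosperm is the second product of double fertilization and feeds the embryo. In grasses it first divides as nuclei without walls, then forms cells, and it persists in the ripe grain as the store of starch and protein. The transition embryo is still without visible organs, while its cells are setting up the shoot and root meristems and the scutellum, the shield-shaped organ through which a grass embryo takes up reserves. EEN and TRA thus belong to a common stage of the grain but differ in fate. The sources used here do not say whether they came from the same grains.

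The identifiers of the genes are not paired with descriptions in the sources used here, apart from 16 genes that the study labels by the symbol of an Arabidopsis homolog. Their identifiers were read from printed labels, so a misread label would place values under a wrong symbol. For these and for the identifiers with the largest differences, the values are given per library. The markers of endosperm named by the study (glutelin, ZHOUPI and NAC019 homologs) carry no identifier in the sources used here, so the label of EEN was checked only by its likeness to other groups. Over the tested genes each EEN library correlated best with the other EEN library (r = 0.982), then with the LEN libraries (0.855 to 0.860). Among embryos EEN was closest to LEE (0.765 to 0.769) and not to TRA of its own age (0.756 to 0.758), and r with the SEC libraries was 0.616 to 0.621. Genes are not independent replicates, so these values only describe the libraries. The EEN replicates differed by a median of 0.276 log2 per gene, the widest of the 10 groups, and the TRA replicates by 0.129. The replicate difference of EEN also ran with that of the LEM, LEL and MAT embryos (r = 0.476, 0.45 and 0.352 across genes), while its r with that of TRA was -0.004, and its part in the results was not tested.

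Most of the transcriptome differed between EEN and TRA. Of 22902 genes, 16349 (71.4%) were called at an adjusted p below 0.05 in limma, 7967 of them higher in EEN and 8382 lower (34.8% and 36.6% of the tested genes). The median difference was 1.32 log2 among the genes higher in EEN and -1.41 among the lower ones. Large differences were common in both directions, with 2378 genes called at least 2 log2 higher in EEN (10.4%), 2731 at least 2 log2 lower (11.9%), 450 at least 5 log2 higher and 487 at least 5 log2 lower. The libraries of the 2 groups did not overlap for 19056 genes (83.2%). Calls were fewer among the genes of low level, with 60.2% called among the 5726 genes of lowest mean level and 76.9% among the 5726 of highest, although the median absolute difference was larger among the low genes (1.17 log2) than among the high ones (0.71 log2). With the median of every library set equal, the median difference over all genes moved to 0.114 from -0.0438 log2, and 54.4% of the called genes were higher in EEN, against 48.7% with the deposited scaling. Neither direction prevailed under both scalings.

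**Figure D1:**
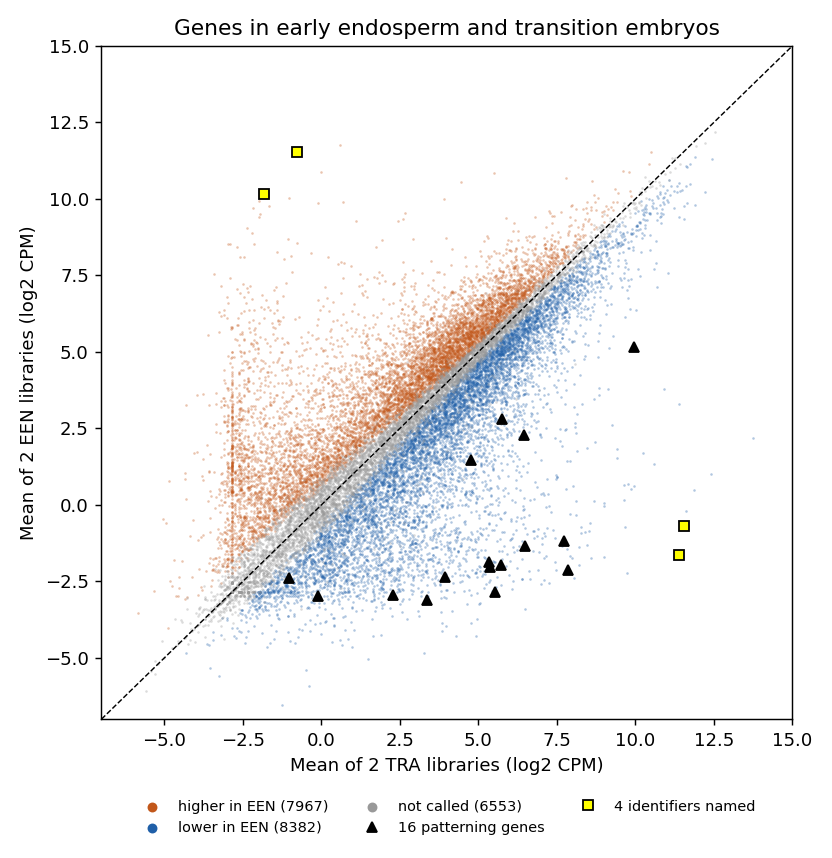
Mean level of each tested gene in the 2 TRA libraries (x axis, log2 CPM) and the 2 EEN libraries (y axis, log2 CPM), with the dashed line at equal levels and colours for the calls at adjusted p below 0.05 (limma). The 16 patterning genes (triangles) all lie below the line, and the 4 identifiers with the largest differences (squares) lie far from it on both sides.

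EEN and TRA shared many of their genes. Of the tested genes, 17156 were above 1 CPM in both EEN libraries and 17430 in both TRA libraries, and 15176 (66.3%) were so in all 4. The genes at least 2 log2 higher in EEN took 12.6% and 11.6% of the summed CPM in EEN libraries, against 0.935% and 0.903% in TRA libraries. The genes at least 2 log2 lower in EEN took 1.95% and 1.74% in EEN, against 16.8% and 17.3% in TRA. These sums describe the genes picked by the same values. The 100 most abundant genes of a library held 17.8% and 15% of the sum in EEN and 21.3% and 22.9% in TRA.

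The largest increase was that of Bradi2g38055.1. It stood at 11.83 and 11.24 log2 CPM in the EEN libraries, against -1.06 and -0.45 in the TRA libraries, a difference of 12.29 log2 (SE 1.25, adjusted p = 3.1e-07 from limma). It was at 12.53 and 13.25 log2 CPM in LEN and at 1.57 and 2.49 in SEC, so that its high values were in both endosperm groups.

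Bradi4g28220.1 followed with 10.12 and 10.17 log2 CPM in EEN, against -3.33 and -0.29 in TRA, a difference of 11.96 log2 (SE 1.41, adjusted p = 1.7e-06). The TRA libraries lay far apart for this gene, and the difference was 10.44 without TRA replicate 1 and 13.48 without TRA replicate 2. It was at 12.83 and 12.93 log2 CPM in LEN and at 3.37 and 3.65 in SEC. For both genes the EEN and TRA libraries were separated by more than 10 log2.

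The identifiers with the largest decreases were abundant in early embryos. Bradi1g34640.1 was at -0.15 and -3.09 log2 CPM in EEN, against 11.29 and 11.48 in TRA, a difference of -13.00 log2 (SE 1.21, adjusted p = 1.2e-07 from limma). The value of EEN replicate 2 is the floor of this gene, which is its lowest value, shared by several libraries, and marks the detection limit. The difference was therefore -14.48 without EEN replicate 1 and -11.53 without EEN replicate 2.

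Bradi1g11920.1 was at -0.02 and -1.37 log2 CPM in EEN, against 11.46 and 11.62 in TRA (difference -12.24, SE 0.69, adjusted p = 3.3e-10), and EEN replicate 2 was again at the floor. In LEN and SEC, too, replicate 1 was above the floor and replicate 2 at it for both genes, and the source of the replicate 1 values was not tested. Without EEN replicate 1 the difference was -12.91, and without EEN replicate 2 it was -11.56. Both genes had their highest embryo levels before the leaf stages, with means of 12.34 at PEM for Bradi1g34640.1 and 11.54 at TRA for Bradi1g11920.1, and at MAT their means were -0.94 and 0.08 log2 CPM.

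**Figure D2:**
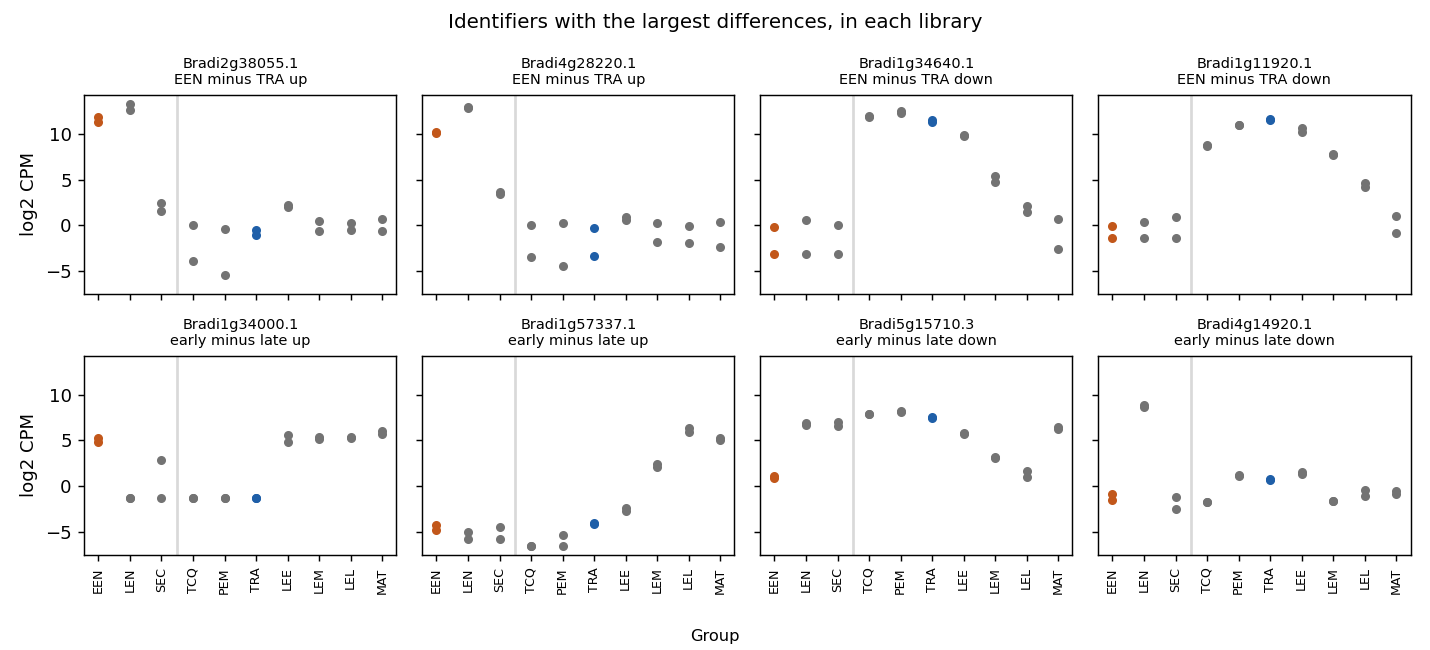
Level of 8 identifiers (log2 CPM) in each of the 2 libraries of the 10 groups, with EEN in orange, TRA in blue and the other groups in grey. The upper row holds the largest EEN minus TRA differences, where EEN lies at 10.12 or above for the 2 genes that rose and at -0.02 or below for the 2 that fell, and the lower row holds the largest differences between the early and the late pair.

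All 16 labelled patterning genes were lower in EEN than in TRA. Each was called in limma, with adjusted p from 2.9e-15 to 0.0023, against 36.6% of all tested genes that were called lower. The EEN libraries did not overlap with the TRA libraries for any of the 16, against 83.2% of all genes without overlap in either direction. The median level of the 16 genes was -1.99 log2 CPM in EEN and 5.46 in TRA, against medians of 2.74 in EEN and 2.91 in TRA over all tested genes. The study chose these genes for their roles in the embryo, so the list is not independent evidence of this direction. The direction and the call were the same for all 16 with library medians set equal and with quantile normalization. In EEN, 8 of the 16 were at the floor in both libraries, and no fold is given for these, while 4 were above 1 CPM in both EEN libraries.

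**Figure D3:**
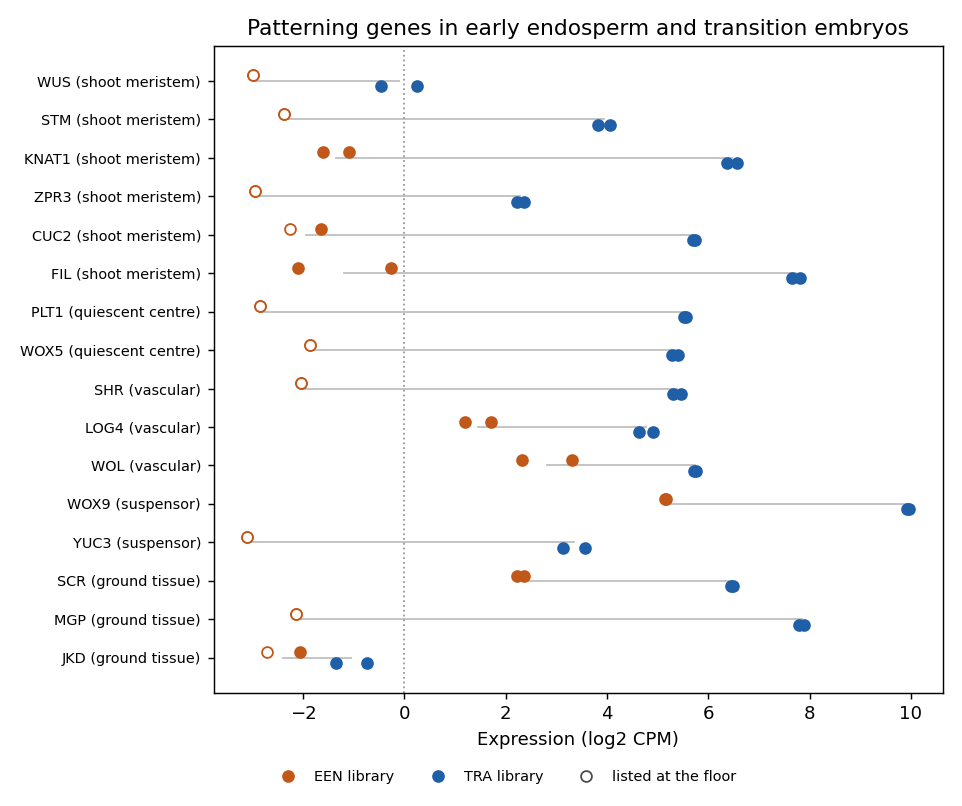
Level of the 16 patterning genes (log2 CPM) in the EEN libraries (orange) and the TRA libraries (blue), 2 each, with open points for libraries listed at the floor of the gene and grey lines between the group means. WOX9, WOL, SCR and LOG4 are above 0 in both EEN libraries, and the EEN and TRA points overlap for none of the genes.

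The genes of the shoot apical meristem and its organs were at or near the detection limit in EEN. The KNOX genes keep meristem cells undifferentiated in Arabidopsis. KNAT1 (Bradi1g10047.2) was at -1.61 and -1.1 log2 CPM in EEN, against 6.37 and 6.57 in TRA, a difference of -7.82 log2 (SE 0.29, adjusted p = 2.5e-12 from limma). STM (Bradi1g57607.1) was at its floor of -2.36 in both EEN libraries, against 3.82 and 4.06 in TRA (adjusted p = 4.3e-09).

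The boundary and polarity genes followed. CUC2 (Bradi1g41712.2), a NAC factor that separates organs in Arabidopsis, was at -1.65 and -2.25 log2 CPM in EEN, the second value being the floor, against 5.69 and 5.73 in TRA (difference -7.66, SE 0.23, adjusted p = 2.9e-13). FIL (Bradi3g30410.1), a YABBY factor of the lower leaf side, was at -0.27 and -2.10 in EEN, against 7.81 and 7.66 in TRA (difference -8.92, SE 0.39, adjusted p = 1.7e-11). Its EEN libraries lay apart, and the difference was -9.84 without EEN replicate 1 and -8.00 without EEN replicate 2. The SE of FIL pools the spread of all groups and understates that of EEN. A limma fit of the EEN and TRA libraries alone gave adjusted p = 0.0019.

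The stem cell regulator WUS (Bradi5g25113.1) was at its floor of -2.98 in both EEN libraries, against 0.25 and -0.45 log2 CPM in TRA (adjusted p = 5.2e-08 from limma), and so was low in both tissues. ZPR3 (Bradi4g42250.1), a small leucine zipper protein that binds factors of leaf polarity, was at its floor of -2.94 in both EEN libraries, against 2.35 and 2.22 in TRA (adjusted p = 1.2e-08). All 6 genes of this group were thus below 1 CPM in EEN.

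Both genes of the quiescent centre, the organizer of the root stem cells, were listed at the floor in EEN. PLT1 (Bradi5g14960.1), an AP2 factor of root stem cells, was at -2.84 in both EEN libraries, against 5.55 and 5.51 log2 CPM in TRA, with the lowest adjusted p of the 16 (2.9e-15). That rank depends on the pooled fit, where groups at the floor add no spread. A limma fit of the EEN and TRA libraries alone gave adjusted p = 0.00054 for PLT1, against 0.000519 for WOX9. WOX5 (Bradi2g55270.1), a homeobox gene of the centre itself, was at -1.87 in both EEN libraries, against 5.40 and 5.29 in TRA (adjusted p = 1.0e-11). Neither gene left its floor in LEN or SEC, so among the 10 groups both were above the floor only in embryo libraries.

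The genes of the vascular tissue were split by their EEN level. SHR (Bradi1g23060.1), a GRAS factor made in the vascular cylinder, was at its floor of -2.04 in both EEN libraries, against 5.31 and 5.46 log2 CPM in TRA (adjusted p = 1.9e-13). The cytokinin genes were expressed in EEN as well. WOL (Bradi3g59820.1), a cytokinin receptor, was at 2.33 and 3.31 log2 CPM in EEN, against 5.73 and 5.76 in TRA, a difference of -2.92 log2 (SE 0.23, adjusted p = 1.5e-08 from limma), which was -2.43 without EEN replicate 1 and -3.41 without EEN replicate 2. A limma fit of the EEN and TRA libraries alone gave adjusted p = 0.0057.

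LOG4 (Bradi2g42190.1), an enzyme that activates cytokinins, was at 1.71 and 1.21 log2 CPM in EEN, against 4.91 and 4.64 in TRA (difference -3.31, SE 0.30, adjusted p = 9.0e-08). With WOL it was among the 4 genes above 1 CPM in both EEN libraries.

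WOX9 (Bradi2g16444.1), of a homeobox family that acts in the early Arabidopsis embryo, had the highest level of the 16 in either tissue. It was at 5.16 and 5.14 log2 CPM in EEN, against 9.93 and 9.97 in TRA, a difference of -4.80 log2 (SE 0.16, adjusted p = 8.3e-13 from limma). The other gene that the study assigns to the suspensor, YUC3 (Bradi5g01327.2), an enzyme of auxin synthesis, was at its floor of -3.11 in both EEN libraries, against 3.14 and 3.56 in TRA (adjusted p = 1.7e-11).

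The genes of the ground tissue act with SHR in Arabidopsis. SCR (Bradi4g44093.1), its GRAS partner, was present in EEN at 2.22 and 2.37 log2 CPM, against 6.48 and 6.46 in TRA (difference -4.17, SE 0.13, adjusted p = 4.9e-13 from limma). The zinc finger gene MGP (Bradi2g08460.1) was at its floor of -2.13 in both EEN libraries, against 7.80 and 7.89 in TRA (adjusted p = 1.6e-13), the widest gap of the 16. The related zinc finger gene JKD (Bradi3g26910.2) was below 1 CPM in both tissues, at -2.71, its floor, and -2.06 in EEN and -1.35 and -0.74 in TRA, and had the smallest difference (-1.34, SE 0.34, adjusted p = 0.0023).

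Of the 16 genes, 13 were more than 2 log2 below their TRA level in EEN, LEN and SEC alike. The exceptions were YUC3, which was at 2.89 and 2.49 log2 CPM in SEC, WOL, which was at 3.78 and 3.96 in LEN, and JKD, which was low in TRA itself.

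Some genes were present in one tissue and at the detection limit in the other. In 253 genes (1.1%) both TRA libraries were at the floor and both EEN libraries above 1 CPM, and in 350 (1.53%) it was the reverse. The median level was 1.65 log2 CPM in EEN for the 253 and 1.94 in TRA for the 350. A floor can itself lie above 1 CPM, which was so for 16 of the 253 and 25 of the 350. Of the 253 genes found in EEN, 170 (67.2%) were also above 1 CPM in both LEN libraries but 30 (11.9%) in both SEC libraries, and the mean stayed at or below 1 CPM in all 7 embryo stages for 210 (83.0%). The 350 genes found in TRA were above 1 CPM in both libraries for 298 genes at LEE, 255 at PEM and 141 at MAT, and for 43 in LEN and 122 in SEC. These shares were not counted over all tested genes, of which 74.9% were above 1 CPM in both EEN libraries and 76.1% in both TRA libraries. The lower quartile of means over all tested genes was 0.363 log2 CPM in LEN and 0.42 in SEC. The 67.2% in LEN therefore shows no excess over all tested genes.

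The genes that differed most between EEN and TRA were also set apart in tissues that the comparison did not use. The 2378 genes at least 2 log2 higher in EEN had a median of 3.20 log2 CPM in EEN and -1.05 in TRA. Their median was 3.43 in LEN, 0.65 in SEC and between -0.90 and 0.09 in the embryo stages other than TRA, while the medians over all tested genes were 2.88 in LEN and 3.14 in SEC. Of the 2378, 918 (38.6%) had their highest mean in EEN and 862 (36.2%) in LEN, against 10.1% and 13.6% of all tested genes. The choice of genes by EEN over TRA favours EEN as the highest group, so its share is partly set by the choice. SEC was highest for 334 (14%) and MAT for 148 (6.22%), against 20.7% and 17.3% of all tested genes. The same choice leaves fewer genes to the other groups, so these lower shares are partly set by it as well. In 881 genes (37.0%) every embryo stage was more than 2 log2 below EEN, and 214 of these were also more than 2 log2 below EEN in LEN and SEC. The TRA part of this is set by the choice of genes, and the shares were not counted over all tested genes. In 448 genes (18.8%) the embryo reached the EEN level at LEE or later, mostly at MAT (395 genes, 16.6%) and LEL (267 genes, 11.2%). Of all tested genes, 50.3% at MAT and 50.9% at LEL were at or above EEN. The choice of genes high in EEN lowers such shares.

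The 2731 genes at least 2 log2 lower in EEN had a median of -0.55 log2 CPM in EEN and 3.41 in TRA. Their median was -0.35 in LEN and 2.17 in SEC, and among the embryo stages it was 3.40 at PEM and 3.23 at LEE and 1.38 at MAT. Over all tested genes the medians were 2.88 in LEN, 3.14 in SEC and 2.79 at MAT. In SEC 895 of them (32.8%) were at or above the TRA level, but in LEN only 172 (6.30%) were. Both shares were below those of all tested genes, which were 52.0% in SEC and 49.8% in LEN. The choice of genes by TRA over EEN lowers such shares in other groups too, so this gap is partly set by the choice. At LEE the share was 35.4%, against 51.9% of all tested genes. In 1033 genes (37.8%) EEN, LEN and SEC were all more than 2 log2 below TRA. The EEN part of this is set by the choice of genes, and the share was not counted over all tested genes. The highest mean lay at PEM for 566 genes (20.7%) and at TRA itself for 413 (15.1%), against 9.06% and 5.20% of all tested genes. Here the choice of genes favours TRA as the highest group, so its share is partly set by the choice. It lay in SEC for 600 (22.0%), near the 20.7% of all tested genes.

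**Figure D4:**
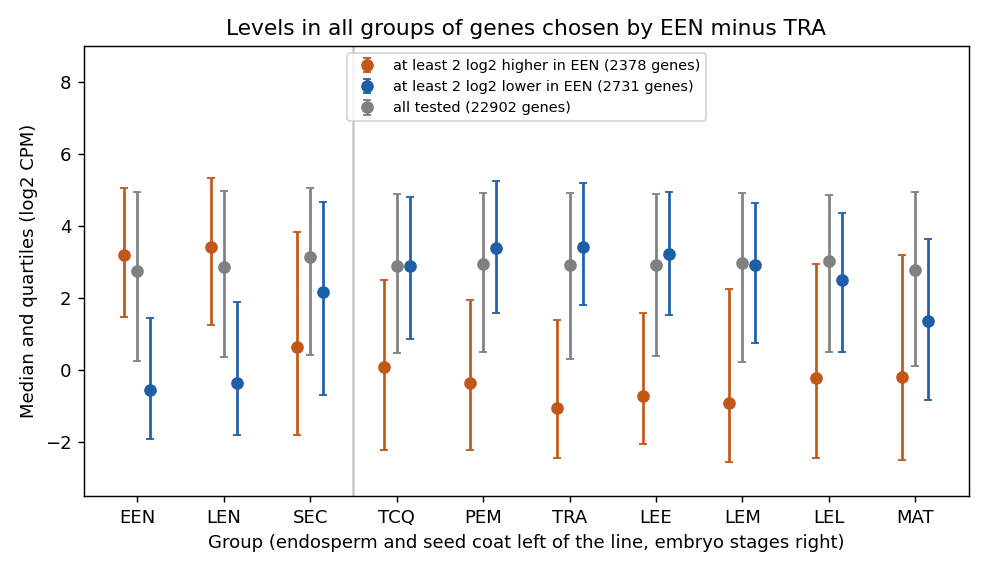
Median and quartiles over genes (log2 CPM) in each of the 10 groups for the genes at least 2 log2 higher in EEN (orange), at least 2 log2 lower in EEN (blue) and all tested genes (grey). The orange genes have medians of 3.20 in EEN and 3.43 in LEN and of 0.09 or less in every embryo stage, and the blue genes are low in EEN and LEN (-0.55 and -0.35) and higher in SEC (2.17).

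The late pair of tissues, late endosperm (LEN) and leaf late embryos (LEL), was sampled at a common later time and shares no library with EEN and TRA. Of its 22902 tested genes, 16935 (73.9%) were called, with 36.7% of the tested genes higher in LEN than in LEL and 37.2% lower. Of the 7967 genes higher in EEN, 4926 (61.8%) were higher in LEN than in LEL, 1837 were not called there and 1204 (15.1%) were lower. Of the 8382 genes lower in EEN, 5053 (60.3%) were lower in LEN, 1853 were not called and 1476 (17.6%) were higher. The same figures as shares of the late calls were 58.5% of the 8416 genes higher in LEN and 59.3% of the 8519 lower ones. Over all tested genes the differences of the early and the late pair correlated with r = 0.616, a correlation across genes. The difference between the pairs was tested as an interaction, and 14325 genes (62.5%) were called, 31.3% above 0 and 31.3% below 0. All 2680 genes called in opposite directions were among them, which follows from the opposite calls and is no separate result.

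**Figure D5:**
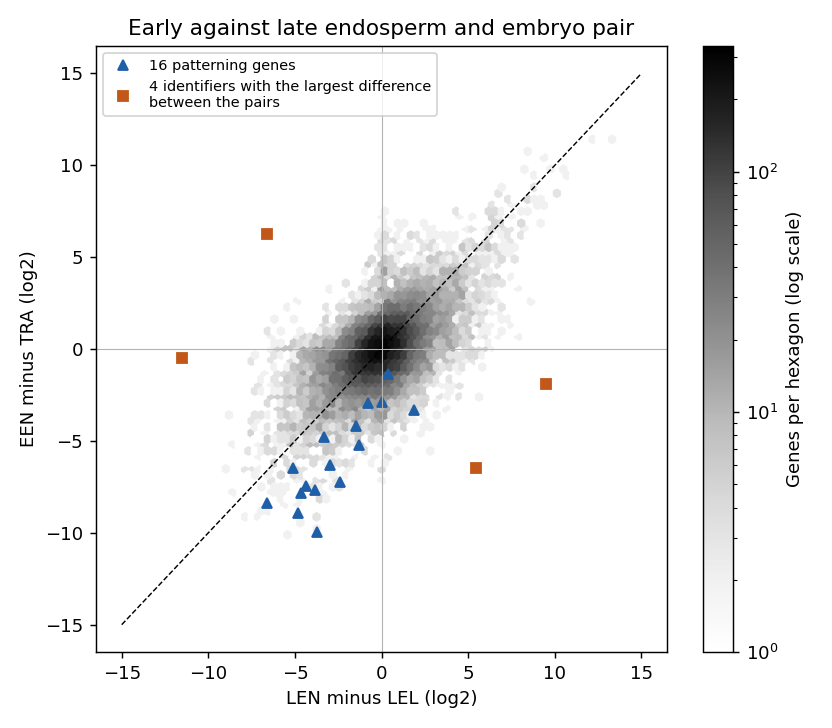
EEN minus TRA (y axis, log2) against LEN minus LEL (x axis, log2) for the tested genes, as counts per hexagon, with the dashed line at equal differences. All 16 patterning genes (triangles) lie below the line, and the 4 squares are the identifiers with the largest difference between the pairs.

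The genes with the largest differences between the pairs were of different kinds. Bradi1g34000.1 changed sides: it was at 4.79 and 5.22 log2 CPM in EEN, against its floor of -1.26 in both TRA libraries, but at the floor in both LEN libraries, against 5.38 and 5.32 in LEL (interaction adjusted p = 1.6e-07 from limma). It was also at the floor in TCQ and PEM and above 1 CPM in every embryo stage from LEE on.

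Bradi5g15710.3 changed sides the other way. It was at 1.1 and 0.89 log2 CPM in EEN, against 7.42 and 7.53 in TRA (difference -6.48, SE 0.17), and at 6.72 and 6.90 in LEN, against 1.67 and 1.07 in LEL (difference 5.44, SE 0.17), so that the pairs differed by -11.92 log2 (SE 0.24, adjusted p = 1.8e-13). In SEC it was at 6.61 and 7.03, near its LEN level.

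The remaining pair of identifiers differed mainly in the late tissues. Bradi1g57337.1 did not pass the test between EEN (-4.26 and -4.73 log2 CPM) and TRA (-3.94 and -4.13, adjusted p = 0.34), but was at -5.02 and -5.75 in LEN, against 6.36 and 5.92 in LEL. Bradi4g14920.1 was low in EEN (-0.87 and -1.50) and TRA (0.70 and 0.78), with a difference of -1.92 (SE 0.35, adjusted p = 0.00015), and reached 8.66 and 8.88 in LEN, against -0.37 and -1.02 in LEL. Opposite differences of at least 2 log2 in both pairs were rare, with 44 genes higher in EEN and lower in LEN and 98 lower in EEN and higher in LEN.

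The patterning genes were also mostly lower in the late endosperm than in the late embryo. Of the 16, 13 were lower in LEN than in LEL and 1 was higher, against 37.2% and 36.7% of all tested genes. The exception was LOG4, which was at 2.20 and 2.34 log2 CPM in LEN, against 0.17 and 0.66 in LEL (difference 1.85, SE 0.30, adjusted p = 4.7e-05 from limma). WOX9, well above 1 CPM in EEN, was at 0.68 and 0.32 in LEN, against 3.80 in both LEL libraries. The interaction was called below 0 for all 16, but WUS, ZPR3, PLT1 and WOX5 were at the floor in every EEN and LEN library, so that for these 4 it holds only the difference between the embryo stages. It was called below 0 for all 12 others, against 31.3% of all tested genes. STM, KNAT1, CUC2, FIL, SHR, YUC3, MGP and JKD, among these 12, were below 1 CPM in every EEN and LEN library. For them the call cannot be assigned to a change in the endosperm. FIL, for example, had means of -1.185 in EEN and -1.19 in LEN, against 7.73 in TRA and 3.63 in LEL.

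The share of one tissue in the libraries of another was bounded from the genes that were lowest there. Carried RNA brings every abundant transcript of its source, so the lowest ratios set an upper limit, taken here as the 50th lowest ratio among genes of at least 6 log2 CPM in the source. For TRA embryos in EEN libraries this limit was 0.302% and 0.224%, and for EEN in TRA libraries 0.260% and 0.249%. For SEC it was 0.0802% and 0.0712% in EEN, against 0.239% and 0.279% in TRA. SEC was sampled at the later LEL stage, so the limits for SEC need not hold for a seed coat of the age of EEN and TRA. The limits depend on the rank taken. By the 10th lowest ratio among genes of at least 9 log2 CPM, chosen after the data were examined, the limit was 0.161% and 0.106% for TRA in EEN, 0.0442% and 0.0646% for EEN in TRA, and 0.149% and 0.181% for SEC in TRA. Of the 6 patterning genes with no EEN or TRA library at the floor, FIL was in EEN at 0.207% and KNAT1 at 0.442% of the TRA level on the linear scale, WOX9 at 3.59%, SCR at 5.54%, LOG4 at 10% and WOL at 13.2%. These shares come from log2 means of 2 libraries, while the limits are per library. FIL was at -0.27 log2 CPM in EEN replicate 1 and -2.10 in EEN replicate 2, so its mean share cannot be placed against either limit. The part of carried RNA in these levels, and the source of low values in single libraries, were not tested.

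The genes that differed were spread over the 5 chromosomes, which the identifiers name. Between 34.4% and 35.2% of the tested genes of a chromosome were higher in EEN and between 34.5% and 37.5% were lower. Along the order of the identifiers, 54 runs of at least 3 neighbouring tested genes were at least 2 log2 higher in EEN, holding 177 of the 2378 genes, and 55 runs were at least 2 log2 lower, holding 176 of the 2731. Among the longest runs of higher genes, the one with the widest gap, named here after its values were seen, went from Bradi1g20801.1 to Bradi1g20815.1 on chromosome 1. Its 4 genes had means of 3.51 to 6.22 log2 CPM in EEN, against -3.11 to -2.68 in TRA, and all 4 were also higher in LEN than in LEL. In SEC they were at -3.11 to -1.61. A run of 5 lower genes, from Bradi2g13087.1 to Bradi2g13108.1 on chromosome 2 and likewise chosen after its values were seen, had means of -2.42 to -0.19 in EEN, against 0.77 to 2.68 in TRA, and of 1.16 to 10.46 in SEC. Neighbours that are near-identical copies can share reads, so single values within a run are uncertain.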

How the data were processed

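The submitters' processing notes name CASAVA, Trimmomatic and Salmon. After filtering, the authors assigned reads to 1 model per gene of the JGI annotation with Salmon. The deposited values are log2 CPM, normalized by the authors, with 1 column for each of the 20 libraries. The sources used here state no read totals, so the depth of each library is unknown and counting error could not be computed. A floor is a lowest value shared within 1e-06 by at least 2 libraries. Floors depend on the authors' processing and differ between genes, and where both libraries of a group are at the floor, the report gives levels without a fold, while fitted differences between the pairs printed for such genes depend on the floor and are no bounds.

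The log2 values were tested with limma 3.58.1 in R 4.3.3, in 1 fit of the 10 groups with a trend on mean expression and no covariate (10 residual and 4.82 prior degrees of freedom). The spread of a gene is pooled over the 10 groups. An SE or p-value can therefore understate the spread of EEN, whose replicates differed most. Groups with both libraries at the floor add no spread, which also lowers the SE. The contrasts were EEN minus TRA, LEN minus LEL and their difference. Each adjusted p is a Benjamini-Hochberg value of limma over the 22902 tested genes, called at 0.05, and each test is two-sided. With 2 libraries a side an exact permutation test cannot reach this threshold. The study calls the replicates biological, each a pool of embryos or grains. The sources used here do not say whether the pools came from separate plantings, and a p-value reflects only the spread between these libraries, part of which may be technical. The 847 other genes did not pass the filter. None of the identifiers matched a table of 31335 RefSeq genes (0 matches), so the gene lists planned from descriptions could not be made and no sequence is shown.

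The members and lists were chosen with earlier results of these data known. Named are the 16 labelled genes and, per contrast and direction, the 2 identifiers with the largest difference among called genes that reach 5 log2 CPM in a compared group and do not overlap between groups. The procedure was tested on simulated data. Alternatives were other filters, scalings, variance models, a log2(CPM + 1) scale, a replicate block and leaving out each library.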

Additional observations from a re-analysis of the deposited data

Results flagged for a closer look

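The EEN minus TRA difference was set against the LEN minus LEL difference in 1 test, and 14325 genes differed between the early and the late pair (limma interaction, adjusted p below 0.05). Among the genes named, the test passed for all 16 patterning genes. The early difference minus the late one was -6.25 log2 for MGP, -5.16 for LOG4, -4.82 for WOX5, -4.10 for FIL, -3.95 for ZPR3 and -3.81 for CUC2. It was -3.33 for STM, -3.19 for KNAT1, -3.05 for SHR, -2.88 for WUS, -2.70 for SCR, -2.12 for WOL, -1.76 for PLT1, -1.69 for JKD, -1.50 for WOX9 and -1.36 for YUC3. Adjusted p ran from 4.7e-09 for MGP to 0.0077 for YUC3. WUS was at its floor in both LEN and both LEL libraries, so no late difference could be measured for it, and for ZPR3, PLT1 and WOX5, at the floor in every EEN and LEN library, the value holds only the difference between LEL and TRA. The values of STM, SHR, YUC3 and MGP, with both EEN libraries at the floor, of CUC2, with both LEN libraries there, and of Bradi1g34000.1, with both TRA and both LEN libraries there, depend on the floor and are no bounds. KNAT1, FIL and JKD were below 1 CPM in every EEN and LEN library, so their values cannot be assigned to a change in the endosperm. Of the identifiers named, Bradi1g34640.1 differed by -9.92, Bradi1g11920.1 by -7.29, Bradi1g34000.1 by 12.88, Bradi1g57337.1 by 11.07, Bradi5g15710.3 by -11.92 and Bradi4g14920.1 by -11.39 log2. The test did not pass for Bradi2g38055.1 (-0.71, SE 1.76, adjusted p = 0.74) and Bradi4g28220.1 (-1.90, SE 1.99, adjusted p = 0.42).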

How the results depend on the processing

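The counts for EEN minus TRA and for the difference between the pairs stayed within 1.5 times under each other filter, scaling, scale or variance model and with any single library left out, apart from the test against a minimum difference. With each EEN or TRA library left out in turn, 14838 to 15574 genes differed between EEN and TRA, 7161 to 7524 of them higher in EEN and 7531 to 8065 lower, and with each EEN, TRA, LEN or LEL library left out, 13054 to 14297 differed between the pairs. A fit of the 4 libraries alone called 14524 genes. When differences were tested against a minimum of 1 log2, 7109 genes passed, 3384 higher and 3725 lower. The replicate numbers did not pair EEN with TRA (r = -0.004 for the replicate differences), and with a replicate block 16526 genes differed. Where a named gene was refitted, no call was lost or turned in direction, and 1 was gained, that of Bradi4g28220.1 between the pairs on the log2(CPM + 1) scale (-2.58, adjusted p = 0.00081). WUS, JKD and Bradi1g57337.1 did not pass the filter on the 4 libraries compared and have no value there. That filter and the fit of 4 libraries were not run between the pairs, and the minimum of 1 log2 was not applied to named genes. JKD came closest to the threshold, with adjusted p up to 0.038 for EEN minus TRA (4 libraries alone) and 0.0497 between the pairs on the log2(CPM + 1) scale. Other limits were chosen after the data were examined. With 2 log2 CPM in place of 0, 93 genes were in EEN with TRA at the floor and 160 in TRA with EEN at the floor. By the 10th lowest ratio among genes of at least 9 log2 CPM, the share was at most 0.161% and 0.106% for TRA in EEN, 0.0442% and 0.0646% for EEN in TRA, and 0.0350% and 0.0341% for SEC in EEN, against 0.149% and 0.181% for SEC in TRA. Runs of at least 3 neighbours numbered 287 higher and 373 lower at 1 log2, and 18 higher and 18 lower at 3 log2. Depth is unknown, so what it limits could not be measured.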

Other observations

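The low values of the identifiers with the largest decreases were split by replicate number in all 3 tissues other than the embryo. Bradi1g34640.1 was at -0.15 in EEN replicate 1, 0.54 in LEN replicate 1 and 0.07 in SEC replicate 1, and at its floor of -3.09 in replicate 2 of each. Bradi1g11920.1 was at -0.02, 0.34 and 0.95 in the same replicate 1 libraries and at its floor of -1.37 in replicate 2 of each. In MAT embryos, where both were low, replicate 1 was again the higher, at 0.69 against -2.58 in replicate 2 for Bradi1g34640.1 and at 1.02 against -0.85 for Bradi1g11920.1. The genes with the largest increases were lower in replicate 1 than in replicate 2 of each embryo stage, by unequal amounts. Bradi4g28220.1 was at -3.45, -4.47 and -3.33 log2 CPM in replicate 1 of TCQ, PEM and TRA, and at 0.01, 0.21 and -0.29 in replicate 2, but at LEE it was at 0.64 and 0.94. Bradi2g38055.1 was at -5.38 and -0.37 in the PEM replicates, but at -1.06 and -0.45 at TRA and at 2.04 and 2.20 at LEE. These values were noticed after the data were examined, and their source was not tested.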
